A study of Mus musculus with 8 samples.

Results

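Twist1, Prrx1, Runx1, Runx2, Snai2, Klf4 and Myc encode transcription factors of mesenchymal identity and of growth, and the chromatin accessibility of the DNA around these 7 genes was compared between NIH3T3 cells cultured on G128 and on G2. The loci were 7 fixed windows of the mouse genome build mm9, and every peak that overlapped a window by at least 1 bp was taken. Peaks of the 4 libraries that shared at least 1 bp were merged into regions, which gave 55 regions in the windows out of 45915 in all. The windows were chr12:34610001-34680000 for Twist1, chr1:165150001-165270000 for Prrx1, chr16:92580001-92850000 for Runx1 and chr17:44610001-44970000 for Runx2. Those of Snai2, Klf4 and Myc were chr16:14680001-14740000, chr4:55510001-55570000 and chr15:61790001-61850000. The rule uses position alone, and the genes were picked with earlier results of these data known.

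NIH3T3 is an immortalised line of mouse embryo fibroblasts, and a single such line was used. Accessibility was measured by ATAC-seq, in which the Tn5 transposase inserts sequencing adapters into DNA that is not covered by nucleosomes. The same cells, grown in serum-containing medium, were kept on G128 or on G2 for 24 h, with 2 libraries for each, and no genetic change or further agent is named for either group. What G128 and G2 are is not explained in the labels, and the series concerns how adhesion affects chromatin. Nothing says that the replicates were separate cultures, so p-values measure only the spread between these libraries, which may be technical.

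Twist1, Prrx1 and Snai2 are factors of mesenchymal cells. TWIST1 is a basic helix-loop-helix protein, PRRX1 a paired-type homeodomain protein of limb and craniofacial mesenchyme, and SNAI2 a zinc finger repressor of epithelial genes such as the one for E-cadherin. RUNX1 and RUNX2 bind DNA as heterodimers with CBFB; RUNX1 is needed for definitive blood formation and RUNX2 for the osteoblast lineage, and each gene is transcribed from a distal and a proximal promoter. KLF4 is a zinc finger factor of the Krüppel-like family, and MYC pairs with MAX to drive genes of growth, and both genes respond rapidly to serum in fibroblasts.

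Promoter sequences of these genes were searched for letter matches to motifs of RUNX, SNAI2, MYC and KLF proteins. No motif was chosen for TWIST1 or PRRX1. The RefSeq table of build GRCm38.p6 held 5 of the 7 genes, with 6 promoters among them, 2 of which belong to Runx1. The 250 bases before the transcription start were searched on both strands for TGTGGT (bound by RUNX proteins), CAGGTG (by SNAI2), CACGTG (by MYC with MAX) and CCGCCC (by KLF proteins). Matches of different motifs did not overlap in the sequences shown, while the first 2 CCGCCC matches of Klf4 share 1 base. Over all 32851 promoters of that table, 14% held TGTGGT, 17.2% CAGGTG, 6.0% CACGTG and 32.7% CCGCCC in a stretch of this length. The sequences of Klf4, both Runx1 promoters and Runx2 are shown because the accessibility results below turn on these 3 genes. They are read 5′ to 3′ on the minus strand of the assembly, which is the sense strand of each gene, and capitals mark the matches to the 4 motifs.
Klf4: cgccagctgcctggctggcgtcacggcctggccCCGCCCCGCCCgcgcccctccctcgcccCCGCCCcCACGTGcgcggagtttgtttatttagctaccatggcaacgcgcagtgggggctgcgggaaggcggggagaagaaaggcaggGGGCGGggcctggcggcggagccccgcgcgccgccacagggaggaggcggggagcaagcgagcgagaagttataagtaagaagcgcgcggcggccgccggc
Runx1 distal: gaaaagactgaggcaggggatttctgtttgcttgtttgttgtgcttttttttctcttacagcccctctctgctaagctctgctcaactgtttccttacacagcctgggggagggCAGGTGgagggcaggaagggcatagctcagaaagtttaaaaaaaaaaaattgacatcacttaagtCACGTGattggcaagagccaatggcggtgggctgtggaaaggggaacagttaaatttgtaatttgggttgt
Runx1 proximal: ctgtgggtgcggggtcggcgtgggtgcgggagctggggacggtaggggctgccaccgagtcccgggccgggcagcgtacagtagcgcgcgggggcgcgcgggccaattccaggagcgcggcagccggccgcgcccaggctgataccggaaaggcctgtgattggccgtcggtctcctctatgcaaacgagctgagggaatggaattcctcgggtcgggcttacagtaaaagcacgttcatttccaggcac
Runx2: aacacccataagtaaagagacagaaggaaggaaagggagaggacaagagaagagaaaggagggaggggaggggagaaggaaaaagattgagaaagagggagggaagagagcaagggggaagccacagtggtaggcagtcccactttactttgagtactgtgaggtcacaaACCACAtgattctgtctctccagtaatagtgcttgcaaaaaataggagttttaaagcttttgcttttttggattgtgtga

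The Klf4 stretch held 4 matches to CCGCCC, the motif of its own protein family, and 1 to CACGTG, and was 74.0% G and C, against a median of 52.4% over all promoters. The distal Runx1 stretch held 1 CAGGTG and 1 CACGTG at 45.6% G and C, while the proximal one held none of the 4 at 67.6%. The Runx2 stretch held 1 match to the RUNX motif, on the opposite strand, at 44.8%. Of the promoters not shown, that of Prrx1 held no match and that of Twist1 held 1 CCGCCC.

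Just after their start sites, the distal Runx1 promoter and the Runx2 promoter had a run of 22 identical bases with 2 RUNX matches, shown because it is the longest run shared by any pair of the 6 promoters. The next longest, in other pairs, was 11 bases. It begins 24 bases after the Runx1 start and 19 after the Runx2 start.
Shared run: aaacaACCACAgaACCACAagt
A match is a description of letters. The promoters are on another build than the peaks, so no peak was placed relative to a promoter, exon or intron here.

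All peaks in the windows were compared by their summit, the largest number of overlapping intervals in the peak, recovered from the deposited p-values and divided by the mean background of the same library (the summit over the background). The 4 lists held 32540 to 42358 peaks, at background means of 1.05 to 1.41 overlapping intervals per bp, and the weakest peak of each stood at 18.2 to 19 times the background. Over all regions with a peak in every library, called shared here, summits were higher on G2 by a median of 0.34 on the log2 scale. The median of the shared regions in a library was therefore subtracted from its values, and differences below are relative to that shift unless they are called unscaled.

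More peaks were called in the windows on G2 than on G128, in about the ratio seen over the whole lists. The windows held 42 peaks in G128 replicate 1, 44 in G128 replicate 2 and 54 in each G2 library. The means were 43.0 ± 1.41 peaks on G128 and 54.0 ± 0 on G2 (SD, n = 2 each), and the groups did not overlap. The ratio was 1.26, against 1.20 over the whole lists, and an exact permutation test, two-sided, returned p = 0.33, and its 6 assignments allow no smaller value. Bases covered by peaks followed the same order, with 23529 and 27494 bp on G128 and 30481 and 31924 bp on G2. That ratio was 1.22, against 1.24 over the whole lists. With the same number of peaks taken from each list, the ratio of peaks was 0.975.

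Most of the additional peaks lay in the Prrx1 and Runx1 windows. In the window of Prrx1, the libraries had 4 and 7 peaks on G128 and 8 and 10 on G2. In that of Runx1, they had 10 and 12 on G128 and 16 and 17 on G2. In both windows the groups were apart, whereas in the other 5 they overlapped or touched. The Runx2 window had 15 and 13 peaks on G128 and 17 and 15 on G2, and the windows of Twist1, Snai2, Klf4 and Myc had between 1 and 5 in every library.

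**Figure D1:**
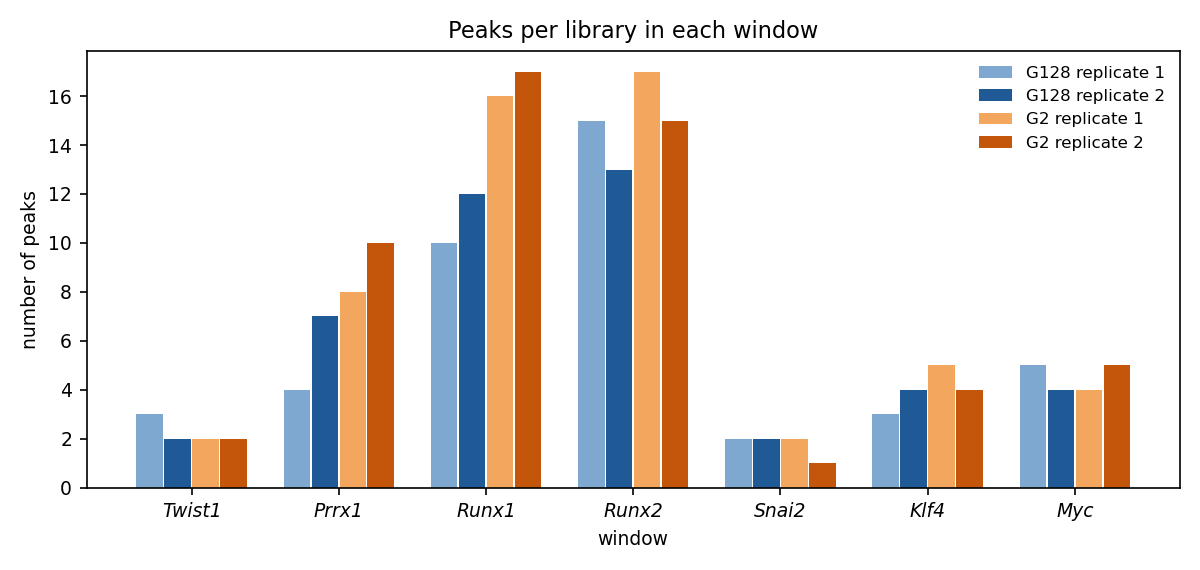
Number of peaks (y axis) in each of the 7 windows (x axis), with 1 bar per library. In the Prrx1 and Runx1 windows both G2 bars stand above both G128 bars, with 8 and 10 against 4 and 7, and 16 and 17 against 10 and 12.

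Of the 55 regions, 32 had a peak in all 4 libraries, which was 58.2%, against 60.5% of all regions. Another 6 were listed in each G2 library and in neither G128 library, where the share over all regions was 8.32%. None had a peak only in both G128 libraries, a class that made up 0.37% of all regions. A further 4 had a peak in every library but G128 replicate 1, against 9.48% of all regions, and 10 had a peak in 1 library only, against 15.5%. All 10 of these were listed in a G2 library, a class that held 12.6% of all regions. Regions without a peak in every library were narrow and low, with a median width of 183 bp and mean summits of 20.5 to 29.1 times the background, near the weakest peaks of the lists.

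**Figure D2:**
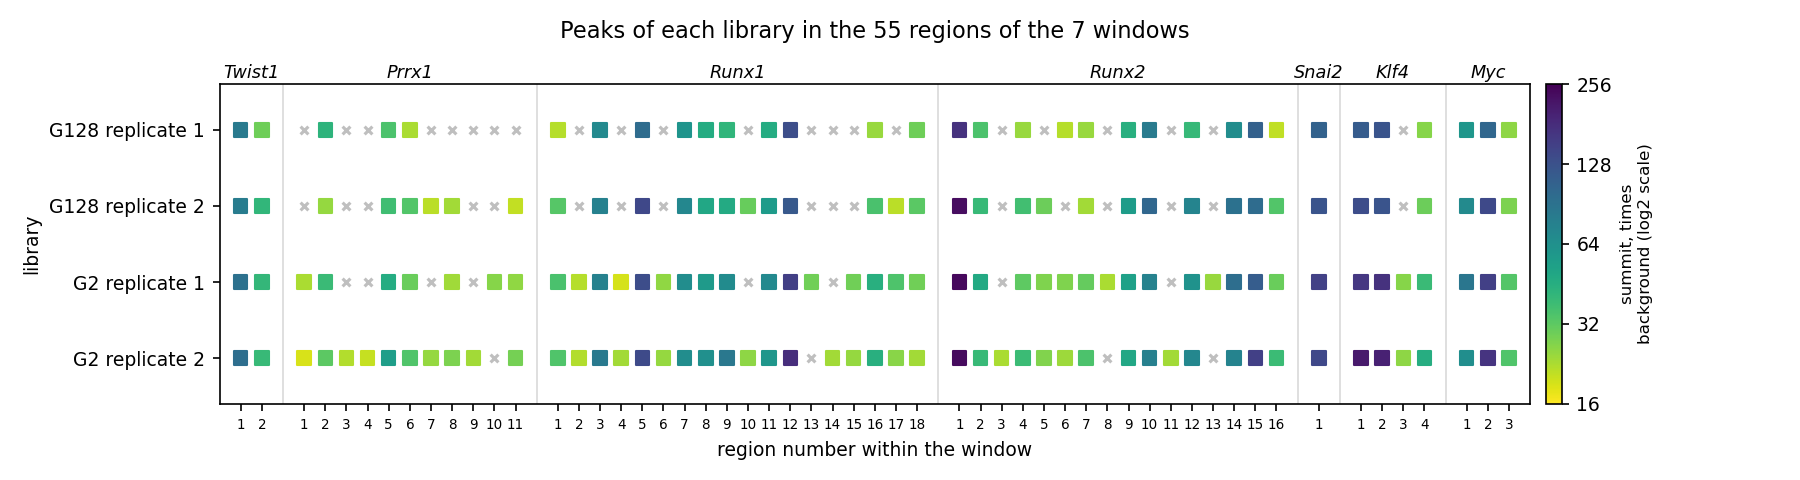
Each of the 55 regions (x axis, numbered by position within its window) in each library (y axis), with a square coloured by summit over the background (log2 colour scale) where the library had a peak and a grey cross where it had none. Crosses are spread over the Prrx1, Runx1 and Runx2 windows, and Klf4 has them only in region 3, in both G128 libraries. Every region of Twist1, Snai2 and Myc has 4 squares.

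Within the shared regions the members were ordinary in height. Their median mean summit was 59.2 times the background, against 60.9 over all 27768 shared regions, and 15 of the 32 lay above that median. Their median width was 671.5 bp against 627 bp, and 10 of the 32 (31.3%) were wider than 1 kb, against 22.2%. Their summits lay within a median span of 65.5 bp between libraries, against 40 bp.

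The test of single shared regions, limma with Benjamini-Hochberg adjustment over all 27768, called 0 of the 32 members higher on G2 at 0.05, against 0.601% of all shared regions. It called 1 lower, against 0.864%, and that was region 10 of the Runx2 window. At an unadjusted p under 0.05, 4 of the 32 passed, 2 in each direction, against 4164 of 27768. The median difference was -0.02 on the log2 scale over the members and 0.01 over all shared regions.

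Which members passed depended on the scaling. Without it, limma called 5 members higher, against 26.6% of all shared regions, and none lower, against 0.22%. The 5 were all 3 shared regions of Klf4 and regions 9 and 16 of Runx1. Counted by groups that did not overlap, 5 members were higher on G2 in both libraries and 6 lower after scaling, against 23.8% and 21.9% of all shared regions. Unscaled, 17 were higher and 2 lower, against 67.6% and 2.79%.

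**Figure D3:**
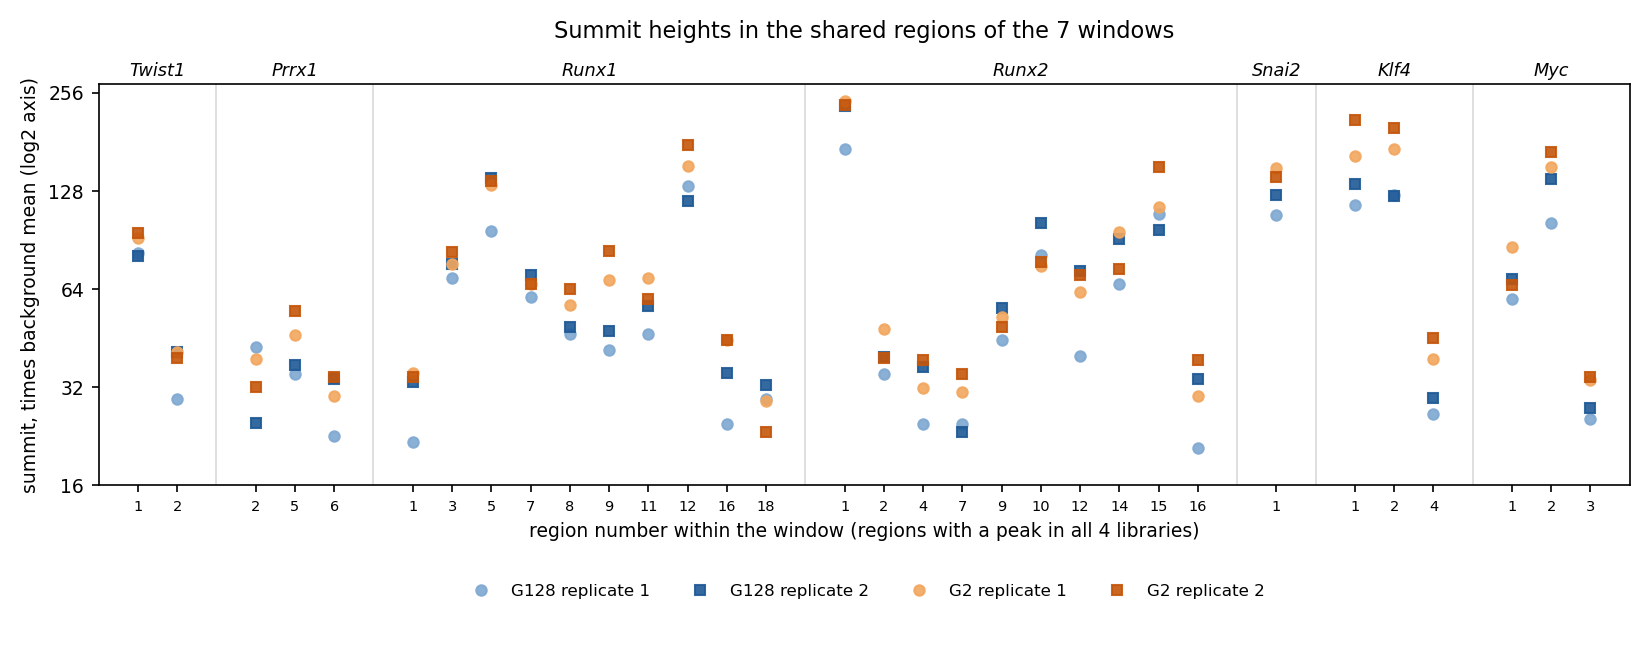
Summit over the background (y axis, log2 scale) in the 32 shared regions of the 7 windows (x axis), with 1 point per library. The highest point is 241 in Runx2 region 1. Both G2 points lie above both G128 points in 17 of the 32 regions, among them the 3 of Klf4, against 67.6% of all shared regions.

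Twist1 had 2 shared regions, 136 bp apart, and no other. Region 1 (chr12:34641600-34642963, 1364 bp) had summits of 82.5 and 80.8 times the background on G128 and 91.9 and 95 on G2. The G2 libraries were above both G128 libraries before scaling and below them after it, with a difference of -0.14 (SE 0.147, limma adjusted p = 0.703). Region 2 (chr12:34643100-34643757) had 29.4 and 41.1 on G128 and 40.9 and 39.5 on G2, with G128 replicate 1 the lowest before scaling. After scaling, the log2 summits were -0.774 and -0.500 on G128 and -0.718 and -0.800 on G2, so G128 replicate 2 stood highest. The difference of region 2 was -0.12, with an interval of -0.52 to 0.28.

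Prrx1 had 11 regions in its window, the lowest of the 7 in height, and only 3 were shared. Region 5 (chr1:165242070-165242811) had summits of 35.1 and 37.6 on G128 and 46.4 and 54.8 on G2. Both G2 values were above both G128 values before scaling; after it the groups overlapped, with a difference of 0.14 (SE 0.190, limma adjusted p = 0.768). Region 2 (chr1:165203373-165203629) had 42.7 and 24.8 on G128 and 39.1 and 32.1 on G2, so the G128 libraries enclosed the G2 libraries, with a difference of -0.21 and an interval of -0.67 to 0.26.

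Region 6 of Prrx1 (chr1:165243317-165243960), the third shared region, had 22.8 and 34 on G128 and 30.02 and 34.3 on G2. It held 1 peak in each library and so added none on G2. The regions of the Prrx1 window that were not shared were weak. Region 1 (chr1:165173709-165173976) was the only one listed on G2 in both replicates and not on G128, at 22.7 and 19 times the background. Regions 5 to 10 lay together between 165242070 and 165245440, and 4 of these 6 lacked a peak in at least 1 library, with summits of 21.3 to 27.8 where there was one.

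Snai2 had a single region (chr16:14705285-14706470, 1186 bp), present in every library. Its summits were 108 and 125 on G128 and 150 and 141 on G2. It stood higher than 77.8% of all shared regions. The unscaled ratio of G2 to G128 was 1.25, and the difference after scaling was -0.01 with an interval of -0.26 to 0.25. Its number of called peaks was 2 in 3 of the libraries and 1 in G2 replicate 2, within the same region.

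Runx1 had the most regions, 18, of which 10 were shared and 4 were listed in each G2 library and in neither G128 library. Another 2, regions 13 and 14, were listed in 1 G2 library alone. The widest was region 12 (chr16:92697449-92699329, 1881 bp), with summits of 133 and 119 on G128 and 153 and 178 on G2. Region 5 (chr16:92620759-92622023) had 96.7 and 140 on G128 and 134 and 137 on G2, with G128 replicate 1 the lowest before scaling. After scaling, G128 replicate 2 stood apart, with a log2 summit of 1.27. G128 replicate 1 was then at 0.945 and the G2 libraries at 0.990 and 1. Neither region 12 nor region 5 passed the test, with differences after scaling of 0.06 (limma adjusted p = 0.874) and -0.11 (limma adjusted p = 0.732).

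The largest differences in the Runx1 window, in either direction, were in regions lower than 5 and 12, and none passed the test after scaling. Regions 1, 8 and 11 were near 0, with differences of 0.04, 0.02 and -0.005. Regions 3 and 7 stood at -0.20 and -0.31 and did not pass (limma adjusted p = 0.567 and 0.354). In both, the G2 libraries lay below the G128 libraries after scaling, as in 21.9% of all shared regions. Region 9 (chr16:92654612-92655412) had summits of 41.7 and 47.5 on G128 and 68.2 and 84.0 on G2, with every G2 value above every G128 value with and without scaling. Its difference was 0.44 (SE 0.172, interval 0.09 to 0.78), larger than in 97.4% of all shared regions, and it missed the threshold (limma adjusted p = 0.207). Unscaled, the difference was 0.77 and the adjusted p from limma 0.00792. Region 8 (chr16:92654075-92654504), only 107 bp away, had 46.5 and 48.9 on G128 and 57.3 and 64.3 on G2.

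At the other end of the Runx1 window, regions 16 and 18 had differences of opposite sign. Region 16 (chr16:92826103-92826333) had 24.7 and 35.4 on G128 and 44.57 in each G2 library, a difference of 0.26 (limma adjusted p = 0.565). Region 18 (chr16:92828630-92828809) had 29.4 and 32.6 on G128 and 29.1 and 23.4 on G2, below both G128 libraries even without scaling. Its difference of -0.58 (SE 0.213, interval -1.01 to -0.15) was close to that of the called Runx2 region and did not pass (limma adjusted p = 0.171). At such heights the summits stand close to the weakest peaks of the lists.

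The 4 regions of Runx1 listed in each G2 library and in neither G128 library were low. Region 15 (chr16:92823974-92824126) had 29.1 and 24.8 times the background in G2 replicates 1 and 2, and region 6 (chr16:92622207-92622465), next to region 5, had 25.5 and 24.8. Region 2 (chr16:92609036-92609149) had 21.8 and 21.9. Region 4 (chr16:92612833-92613074) had 19.1 and 23.4. The weakest peaks of the G128 lists stood at 18.4 and 19 times the background, so all of these summits lay near the height below which no peak is listed.

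Runx2 held the highest summit of the windows and the single region that passed the test. Region 1 (chr17:44637134-44638033) had summits of 173 and 234 on G128 and 241 and 235 on G2, above 91.0% of all shared regions, and its summit lay at the same base in all 4 libraries. Its lowest value before scaling was that of G128 replicate 1. After scaling, G2 replicate 2 and G128 replicate 1 were lowest, with log2 summits of 1.776 and 1.780, and G128 replicate 2 was highest at 2.01. The difference of region 1 was -0.09 with an interval of -0.31 to 0.14. Region 15 (chr17:44913657-44914745) had 109 and 97.1 on G128 and 115 and 151 on G2, a difference of 0.02 (limma adjusted p = 0.955).

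Region 10 of Runx2 (chr17:44854724-44855865, 1142 bp) was lower on G2. Its summits were 81.6 in G128 replicate 1 and 102 in G128 replicate 2, against 75.5 and 77.4 in G2 replicates 1 and 2. Both G2 libraries lay below both G128 libraries before and after scaling, although summits in general were higher on G2. The difference was -0.59 (SE 0.148, interval -0.88 to -0.29, limma adjusted p = 0.0304), and only 1.76% of all shared regions had a lower one. Over the 40 shared regions within 1 Mb outside the window the median difference was 0.12, and 1 of these 40 was as low.

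The call on region 10 held with the deposited signal in place of the summit and with the replicate block, and it did not hold without scaling, where the difference was -0.26 (limma adjusted p = 0.299). It also ended, at differences of -0.53 to -0.61, without G128 replicate 2 (limma adjusted p = 0.0611), G2 replicate 1 (0.225) or G2 replicate 2 (0.223), where the lone library is assumed to vary like the other group, and with quantile normalization (0.0665). With a prior spread that does not follow height the adjusted p from limma was 0.126, and the prior that does was taken after its effect on the number of calls had been seen. Its neighbours showed smaller values in the same direction or none. Region 9 (chr17:44846697-44847221) had 44.58 and 56 on G128 and 52.8 and 49 on G2, a difference of -0.31 (limma adjusted p = 0.427). Region 12 (chr17:44870858-44873686), the widest of the window at 2829 bp, had 39.8 and 73.0 on G128 and 62.8 and 70.9 on G2, a difference of -0.02.

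By summit, the largest difference upward in the Runx2 window was in region 7. This region (chr17:44754903-44755452) had 24.7 and 23.4 on G128 and 30.9 and 35.1 on G2, a difference of 0.12 (SE 0.213, limma adjusted p = 0.827). With the deposited signal the difference of region 7 was 1.5 (limma adjusted p = 0.157), and that of region 16, another low region, was 1.43 against 0.02 by summit. None of the 16 regions of this window had a peak in a single group in both of its replicates, and 4 (regions 3, 8, 11 and 13) were listed in 1 G2 library alone.

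**Figure D4:**
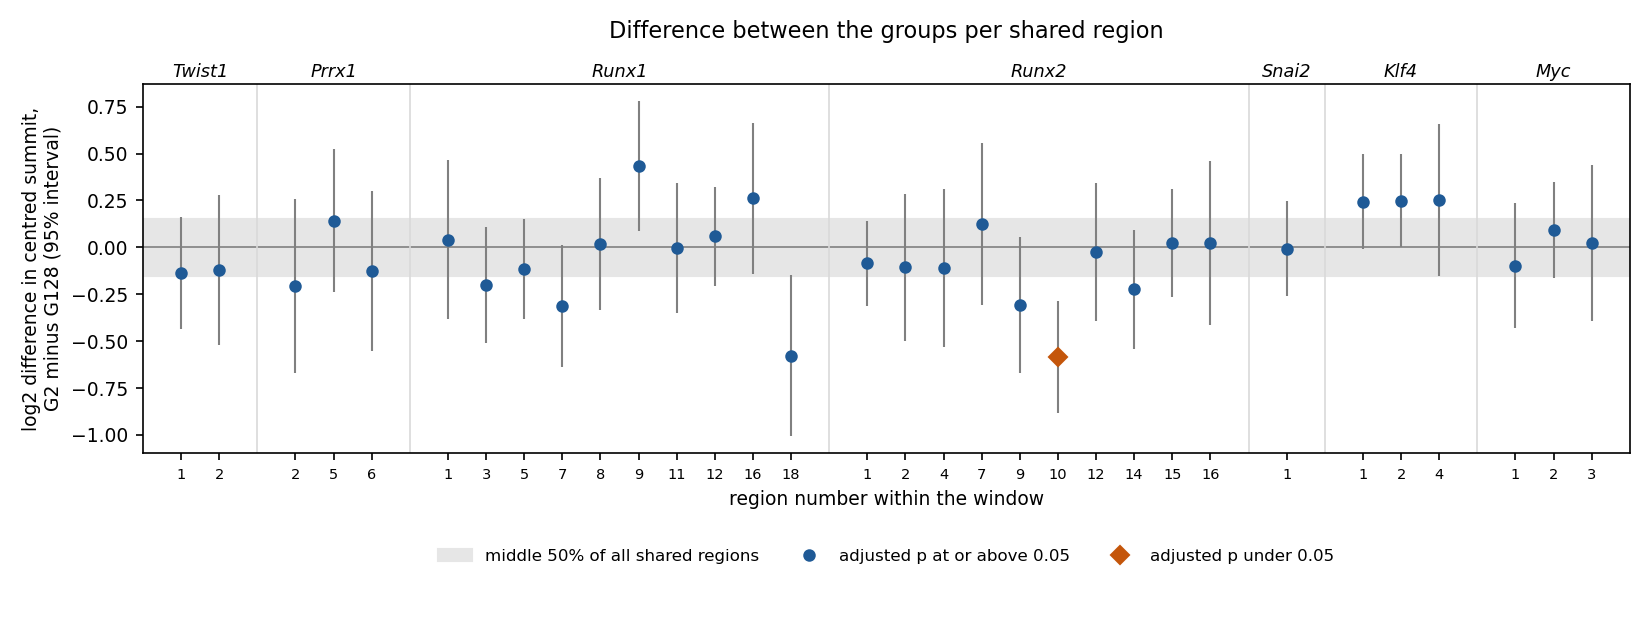
Difference between G2 and G128 in the centred log2 summit (y axis) for the 32 shared regions (x axis), with 95% intervals from limma; the grey band holds the middle 50% of all shared regions. The orange diamond, Runx2 region 10 at -0.59, is the only member with an adjusted p under 0.05, and the other intervals cross 0 except those of Runx1 regions 9 and 18 and Klf4 region 2.

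Klf4 had 3 shared regions, and in all of them both G2 summits were above both G128 summits. Region 1 (chr4:55542743-55544810, 2068 bp) had summits of 116 and 135 on G128 and 164 and 211 on G2. Region 2 (chr4:55545240-55546412) had 124 in each G128 library and 173 and 199 on G2. Region 4 (chr4:55554245-55554889) was far lower and had 26.6 and 29.8 on G128 and 39.1 and 45.3 on G2. The separation held with and without scaling. Over all shared regions, the groups were apart in this direction in 67.6% unscaled and in 23.8% after scaling.

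The ratios of G2 to G128 before scaling were 1.49, 1.5 and 1.5 in regions 1, 2 and 4 of Klf4. The differences were 0.58, 0.58 and 0.58 unscaled, and limma then passed all 3, with adjusted p-values of 0.0135, 0.0127 and 0.0352. Without scaling it called 26.6% of all shared regions higher on G2. After scaling they were 0.24 (SE 0.125), 0.25 (SE 0.124) and 0.25 (SE 0.201), and none passed, with limma adjusted p-values of 0.353, 0.33 and 0.587. The similar sizes rested on the scaling and on the set of libraries. With quantile normalization the differences in regions 1, 2 and 4 were 0.174, 0.177 and 0.311, and with cyclic loess 0.175, 0.181 and 0.334. Without G2 replicate 2 the differences in regions 1, 2 and 4 were 0.075, 0.161 and 0.160. With G2 replicate 1 left out instead, the values became 0.413, 0.339 and 0.343. Without G128 replicate 2, region 2 stood at 0.144 beside 0.249 and 0.229 in the other two. Region 3 (chr4:55546593-55546988) had peaks only on G2, at 26.4 and 25.6 times the background.

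The differences between the cultures in the Klf4 window were set beside those of its surroundings, with no test. Among the 27 shared regions within 1 Mb on either side the median difference was -0.15, and the middle 50% ran from -0.36 to 0.03. Of these 27, 0 reached the lowest of the 3 Klf4 values. Over all shared regions the Klf4 values were less unusual, with 87.2%, 87.7% and 87.9% lower than regions 1, 2 and 4. With the deposited signal, an area over the peak, in place of the summit, the median of the 3 was -0.02 and that of the surroundings -0.31, and 6 of the 27 reached the lowest Klf4 value. On that measure the 3 did not move alike: regions 1 and 2 stood at -0.10 and -0.02 and region 4 at 1.51.

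In the remaining windows the differences of the members overlapped those of their surroundings. The lowest members of Runx2 and Runx1 lay near the edge. The Runx2 member, at -0.59, had 1 of 40 surrounding regions as low, and the Runx1 member, at -0.58, had 1 of 39. The median difference was -0.13 for Twist1 against -0.08 within 1 Mb, -0.12 for Prrx1 against -0.05, and 0.01 for Runx1 against 0.03. For Runx2 it was -0.10 against 0.12, for Snai2 -0.01 against -0.05, and for Myc 0.02 against -0.10. Regions of a window share their libraries and lie near one another, so these medians are descriptions with no test.

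**Figure D5:**
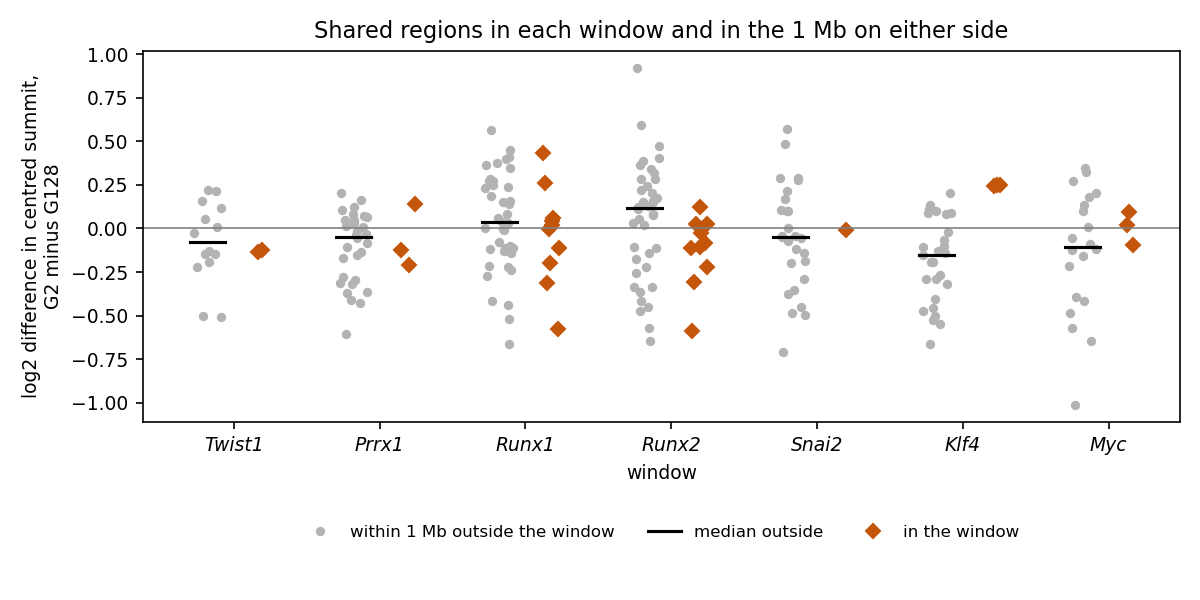
Difference between G2 and G128 in the centred log2 summit (y axis) for shared regions inside each window (orange diamonds) and within 1 Mb outside it (grey points, median as a black line), by window (x axis). The 3 Klf4 diamonds at 0.24 to 0.25 lie above all 27 grey points beside them, and in the other 6 windows diamonds and points overlap.

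Myc had 3 regions, all shared, and the widest region of the windows. Region 2 (chr15:61815733-61819914) spanned 4182 bp and had summits of 102 and 139 on G128 and 152 and 169 on G2, with the lowest in G128 replicate 1. The highest summit lay at places up to 1595 bp apart between libraries, so the values do not all describe the same position. Its difference after scaling was 0.09 (SE 0.127, limma adjusted p = 0.774).

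By deposited signal this Myc region was among the strongest of every list, ranking 837 and 400 in the G128 lists and 950 and 1077 in the G2 lists. Region 1 of Klf4, the other member in the top 5% of each list, ranked 1430 and 852 on G128 and 891 and 535 on G2. Region 1 of Myc (chr15:61814878-61815259) had summits of 59.8 and 68.7 on G128 and 86.4 and 65.8 on G2, so the groups overlapped, with a difference of -0.10 and an interval of -0.43 to 0.23. Region 3 (chr15:61830423-61830856) had 25.6 and 27.6 on G128 and 33.7 and 34.3 on G2. Its unscaled difference was 0.35, against the median of 0.34 over all shared regions.

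Ordered by the mean summit of their highest region, the windows ran from Runx2 (221) over Klf4 (156), Runx1 (146), Myc (140) and Snai2 (131) to Twist1 (87.5) and Prrx1 (43.5). The values of Klf4, Runx1, Myc and Snai2 overlapped between libraries, while Runx2 stood above them and Twist1 and Prrx1 below them in every library.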

How the data were processed

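ATAC-seq peak lists of 4 libraries, 2 per group by title, were used; the 4 RNA libraries were not analysed here. The authors used Bowtie2 2.2.5, SAMtools 1.7, Genrich 0.5 and deepTools, with HISAT2 2.1.0 and featureCounts 1.5.0-p1 also named, on mm9, per the submitters' processing notes; roles, read shifting and duplicate handling are not given in the sources used here. Each deposited list, 1 per library, gives per peak a score, a signal and −log10 p and q-values; signal and ranks by it belong to their own list. The deposited score was proportional to signal over width up to its cap in 100% of peaks.

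Summits were recovered as whole numbers of intervals from the steps of the deposited −log10 p-values (largest distance from a whole number 0.00179), against a log-normal background. Log2 summits over the background, centred on each library's median, were tested with limma 3.58.1 in R 4.3.3, with Benjamini-Hochberg adjustment and a prior trend over height, taken after it was seen that limma without the trend called 0 of 27768 regions; Python was 3.11.15. The computation was tested on simulated data.

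Members, lists and tests were chosen with earlier results of these data known. Named per window were the 2 highest regions, the shared region with the largest difference each way, called regions and regions of a single group. Prrx1 6, Runx1 3, 7, 8, 11 and 16 and Runx2 9 and 12 were added after their values were seen. Related genes such as Snai1, Zeb1 and Runx3 were not analysed here. Alternatives concerned scaling, measure, height, overlap, caller threshold, list length, prior, replicate block and leaving out each library. Centred deviations of the libraries numbered 1 from their group means were not correlated (r = 0.0028 over 27768 regions).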

Additional observations from a re-analysis of the deposited data

How the results depend on the processing

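With 2 libraries per group, the exact test could not go below 0.33, and no list reaches below about 18 times the background, so a region of a single group may hold weaker signal in the other. Across the summaries over the windows, 46 of 63 alternatives left the value within its limits. For counts the limit was a fixed ratio, and 0 against 0 fell inside it, as in most alternatives for members higher on G2. For medians and ratios it was the SD of values from same-numbered pairs of libraries. The tally is therefore a description and no measure of robustness. Without scaling, 5 member regions were higher and 0 lower, and the median difference was 0.316; quantile normalization gave 0 lower, as did a prior without a trend over height. That alternative was added, and the trend itself taken, after the calls of both had been seen. Leaving out each library gave 0 to 1 lower, 7 to 12 regions listed on G2 and in no G128 library and a ratio of bases covered of 1.13 to 1.33. Regions of both G2 libraries alone numbered 2 at a p 10 times stricter and 0 with equally long lists, where the ratio of peaks was 1.12 and 0.975. A 50% reciprocal overlap gave 2 regions of both G128 libraries alone. The cause was not tested. With the replicate block, 1 member region was lower, 0 higher and the median stayed at -0.015; over all shared regions limma called 230 higher and 382 lower with it, against 167 and 240 without, and 0 and 0 without a trend. Centred deviations of same-numbered libraries did not go together (r = 0.0028). Centring removes what is common to a whole library, so this value cannot show whether same-numbered libraries were handled together. The weakest peak stood at 20 intervals in both libraries numbered 1, and at 26 (G128) and 25 (G2) in those numbered 2. Whether same-numbered libraries share more than a number was not tested.

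Of 208 alternatives over 18 named shared regions, 33 turned the sign, in regions whose difference had not passed the test. Without scaling the differences were 0.234 (Myc 1), 0.124 (Prrx1 2), 0.218 (Runx1 5), 0.245 (Runx2 1), 0.325 (Snai2), 0.194 (Twist1 1) and 0.209 (Twist1 2). With the deposited signal they were -0.095 (Klf4 1), -0.021 (Klf4 2), -0.310 (Myc 2), -0.127 (Runx1 12), -0.272 (Runx2 15), 0.138 (Twist1 1) and 0.388 (Twist1 2). Quantile normalization gave -0.012 (Runx1 12) and -0.036 (Runx2 15), and cyclic loess -0.009 and -0.035. A 50% overlap gave -0.185 (Myc 2) and 0.006 (Snai2), and a mean summit of at least 40 gave -0.003 (Runx2 15). With 1 library left out at a time, the range was -0.309 to 0.115 (Myc 1), -0.021 to 0.209 (Myc 2), -0.703 to 0.289 (Prrx1 2), -0.125 to 0.242 (Runx1 12), -0.277 to 0.051 (Runx1 5), -0.200 to 0.028 (Runx2 1), -0.164 to 0.213 (Runx2 15), -0.018 to 0.267 (Runx2 7), -0.066 to 0.053 (Snai2) and -0.259 to 0.015 (Twist1 2). The cause was not tested.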
